A study of Mus musculus with 4 samples.

Results

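The p53 target genes examined here are 10 genes known to be switched on by the tumour suppressor p53: Mdm2, Ccng1, Bbc3, Pmaip1, Perp, Trp53inp1, Sesn2, Phlda3, Zmat3 and Btg2. They were chosen as every probe set of the array annotated to exactly 1 of these symbols, which gave 17 probe sets out of 34945 with a single gene symbol, and 10 genes out of 18193. Affymetrix expression arrays, 4 in number and 1 per group, had been run on RNA of mouse embryonic stem (ES) cells. The Ring1B groups were ES cells with a constitutive knockout (KO) of Ring1B and ES cells labelled as their control. The double KO groups were ES cells with a conditional double KO of Ring1A and Ring1B at day 4 and ES cells labelled as their control. Ring1A and Ring1B are the ubiquitin ligase subunits of Polycomb repressive complex 1, which keeps developmental genes silent. The conditional line was made because cells that lack both proteins cannot be kept in culture, and deletion was started with OHT. Strain, clone, culture conditions and the treatment of the control cells are not given in the sources used here.

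p53 is a transcription factor that is stabilised by DNA damage and other stress. Its targets fall into a negative feedback arm led by Mdm2, which marks p53 for degradation, an arm that halts the cell cycle, an arm that starts apoptosis at the mitochondria, and genes that repair damage or restrain growth signalling. In ES cells, active p53 is also known to favour differentiation.

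A value below is a MAS5 signal, in arbitrary units, after each array was scaled to a common trimmed mean. Signals under the floor of 36.6 were set to it before log2 was taken. Log2 differences are given as knockout-labelled minus control. A difference of 1 is 2-fold, the size counted here. No group had a replicate, so no difference has a replicate check and no p-value was computed. Signals of different probe sets are not comparable as levels, so no gene's level is set against another's. Signal was used to pick the brightest probe set, which stands for a gene, and sums over markers compare the same probe sets between arrays.

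The labels have limits that bear on all differences. Rnf2, which encodes Ring1B, read 2580 and 2775 on the arrays labelled Ring1B control and Ring1B KO, and 2182 and 1986 on those labelled double KO control and double KO. Ring1, which encodes Ring1A, read 146, 164, 44.7 and 55.6 in that order. It was thus lower on both arrays of the double KO pair, with a difference of −1.71 between the control arrays. Whether the double KO control cells carry intact Ring1A was not tested. Whether these probe sets lie in the deleted parts is not known here. ES cell markers were bright on every array, with 10 of 10 above the floor. The blood marker Ptprc was under the floor throughout, but of 6 blood markers 2, 2, 1 and 1 exceeded it, in the array order above. These were Gata1, close to the floor at 39.8, 44.8, 57.0 and 44.3, and Spi1, at 56.9 (Ring1B control) and 44.3 (Ring1B KO). Fibroblast and extraembryonic endoderm markers read lower on the double-KO-labelled array than on its control, for 13 of 13 and 9 of 10 genes above the floor. Whether the labels within a pair are right cannot be told from these values, and exchanged labels would turn the sign of every difference in that pair. The arrays also form pairs that were processed to different means by the authors, so genotype and pair cannot be told apart in a difference across pairs.

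Of the 10 genes, 6 had promoter sequences in the RefSeq table (GRCm38.p6), each from 250 bases before to 50 after a transcription start. The promoters of Btg2 and Phlda3 are shown because both genes read lower on the double-KO-labelled array. Those of Mdm2 and Ccng1 are shown because they were the promoters in which the p53 decamer, the 10-base unit of which a response element holds a pair, was found. Capitals mark that decamer.
Btg2 (chr1:134079106-134079405, minus strand): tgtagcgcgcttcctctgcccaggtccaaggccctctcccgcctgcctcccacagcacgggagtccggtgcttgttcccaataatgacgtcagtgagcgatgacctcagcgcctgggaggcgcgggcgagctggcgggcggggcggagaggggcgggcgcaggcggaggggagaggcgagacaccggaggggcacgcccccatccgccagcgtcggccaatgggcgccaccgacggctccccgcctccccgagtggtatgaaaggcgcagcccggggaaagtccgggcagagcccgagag
Phlda3 (chr1:135765835-135766134, plus strand): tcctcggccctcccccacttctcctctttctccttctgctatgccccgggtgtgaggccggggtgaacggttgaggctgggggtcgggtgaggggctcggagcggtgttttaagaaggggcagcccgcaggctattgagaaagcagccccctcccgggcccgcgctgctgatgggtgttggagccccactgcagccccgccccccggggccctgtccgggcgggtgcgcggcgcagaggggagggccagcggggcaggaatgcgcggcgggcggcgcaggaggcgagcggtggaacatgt
Mdm2 (chr10:117710709-117711008, minus strand): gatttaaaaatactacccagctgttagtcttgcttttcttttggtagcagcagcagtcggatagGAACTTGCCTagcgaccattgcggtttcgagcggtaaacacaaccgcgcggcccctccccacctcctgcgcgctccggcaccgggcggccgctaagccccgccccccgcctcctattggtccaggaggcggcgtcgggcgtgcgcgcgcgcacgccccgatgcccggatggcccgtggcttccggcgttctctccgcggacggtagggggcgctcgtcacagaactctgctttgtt
Ccng1 (chr11:40755237-40755536, minus strand): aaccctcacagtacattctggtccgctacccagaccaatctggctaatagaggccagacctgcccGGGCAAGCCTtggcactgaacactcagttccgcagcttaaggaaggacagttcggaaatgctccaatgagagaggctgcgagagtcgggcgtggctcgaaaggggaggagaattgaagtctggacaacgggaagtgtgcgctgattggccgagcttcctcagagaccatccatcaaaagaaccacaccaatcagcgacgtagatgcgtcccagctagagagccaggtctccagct

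The decamer was searched by its consensus, which reads the same on both strands. It begins 186 bases before the start in Mdm2 and 185 bases before it in Ccng1, and each of these promoters holds 1 match. Of all 32851 promoters of the same length, 8.36% hold at least 1 match and 0.0731% hold a pair set 0 to 13 bases apart. None of the 8 promoters of these genes holds such a pair. CATG, the centre of many known p53 sites, can lie inside the decamer. It is present in 61.1% of all promoters and in 2 of the 8, those of Phlda3 and Sesn2. The known p53 site of Mdm2 lies in its first intron, outside the sequence shown. A match is a run of letters and no evidence of binding.

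On the double-KO-labelled array, Pmaip1, Perp, Btg2 and Phlda3 read at least 2-fold lower than on its labelled control, and none of the 10 genes read at least 2-fold higher. All 10 genes were above the floor on every array. Over the 10697 genes above it on both arrays of the pair, 8.61% were lower by that much and 2.88% higher, or 11.5% in both directions. The median of the 10 genes was −0.58, against −0.023 over those 10697 genes. On the Ring1B-KO-labelled array, 0 of the 10 genes were at least 2-fold from the control, against 5.49% of the 11227 genes above the floor on both arrays, and the median was −0.16 against −0.020. The cells were measured in bulk, so fewer cells of a type and less RNA per cell cannot be told apart.

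**Figure D1:**
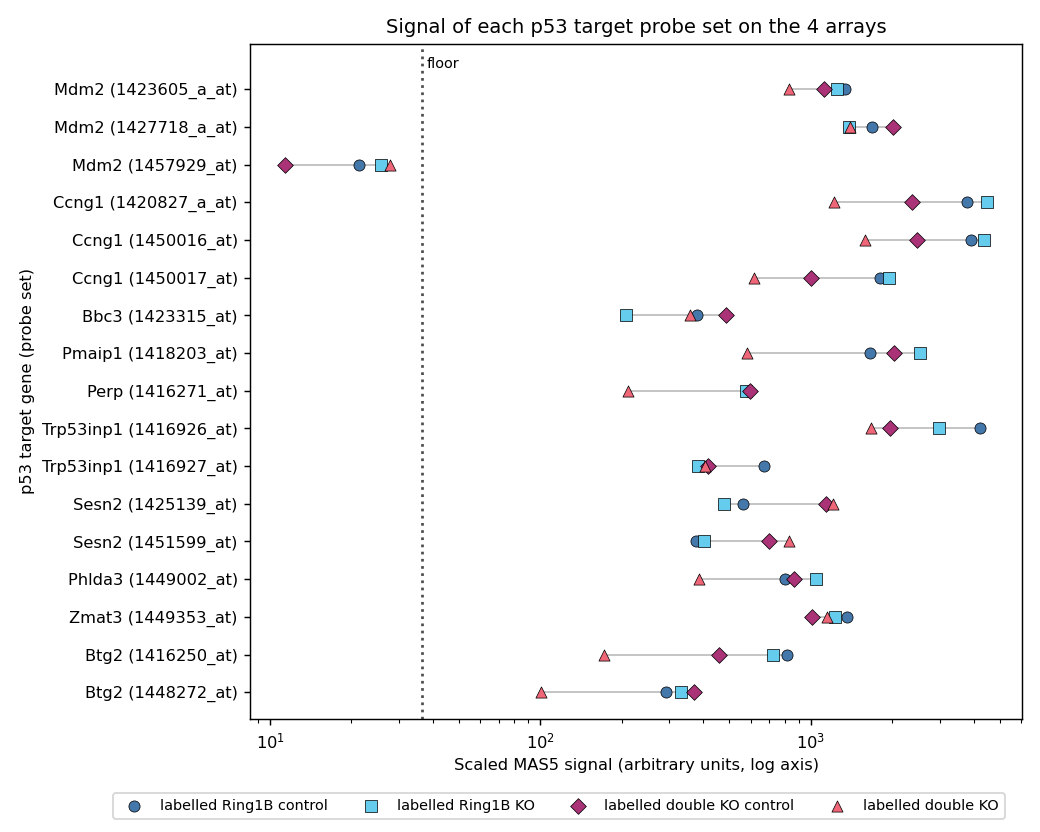
Scaled MAS5 signal (arbitrary units, log axis) of each of the 17 probe sets of the p53 target genes, with 1 symbol per array and a line from the lowest to the highest of the 4 arrays. The double-KO-labelled array (triangles) is lowest for 10 of the 16 probe sets above the floor, and the remaining Mdm2 probe set is under the floor (dotted line) on all arrays.

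Among the genes of the feedback arm, Mdm2, the ubiquitin ligase that restrains p53, had 3 probe sets. The brightest (1427718_a_at) read 1688 on the array labelled control and 1383 on that labelled KO in the Ring1B pair, and 2005 and 1400 in the double KO pair. The next (1423605_a_at) read 1337, 1248, 1121 and 830 in the same order of arrays. Both were lower on each KO array than on its own control, by −0.29 and −0.100 in the Ring1B pair and by −0.52 and −0.43 in the double KO pair. The third (1457929_at) was under the floor on all arrays and gave no difference.

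Ccng1 encodes cyclin G1, a p53-induced cyclin that acts on Mdm2. Its brightest probe set (1450016_at) read 3892, 4373, 2460 and 1584, again in the order Ring1B control, Ring1B KO, double KO control and double KO. A second one (1420827_a_at) read 3780, 4493, 2370 and 1213, and 1450017_at read 1799, 1946, 1001 and 615. All 3 probe sets put the arrays in the same order, with both arrays of the double KO pair under both of the Ring1B pair. The differences were 0.11 to 0.25 in the Ring1B pair and −0.97 to −0.64 in the double KO pair, short of 2-fold at each probe set.

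Zmat3, which encodes a zinc finger protein that binds RNA, read 1362, 1232, 1008 and 1146 at its probe set (1449353_at). Its differences were −0.15 in the Ring1B pair and 0.18 in the double KO pair. Its lowest signal was on the double KO control array.

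Btg2, an antiproliferative gene whose product promotes the removal of poly(A) tails, was lowest on the double-KO-labelled array at both of its probe sets. At 1416250_at the signals were 818, 723, 459 and 172, and at 1448272_at they were 291, 330, 370 and 101. Against its own control the double-KO-labelled array differed by −1.41 (2.66-fold lower) and −1.88 (3.67-fold lower). The Ring1B pair differed by −0.18 at the first and 0.18 at the second, with no common direction. The probe sets also disagreed on the control arrays, where the double KO control differed from the Ring1B control by −0.83 at one and 0.35 at the other.

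Of the apoptosis genes, Pmaip1, which encodes the BH3-only protein Noxa, had the largest difference of the 10 genes at the probe set that stands for each. In the Ring1B pair it read 1657 on the control and 2541 on the array labelled KO, a difference of 0.62. It read 2021 on the double KO control array and 580 on the double-KO-labelled array, a difference of −1.80 or 3.49-fold lower. The double-KO-labelled array lay under the other 3, and the Ring1B-KO-labelled array lay above them.

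Bbc3 encodes Puma, the other BH3-only protein among these genes, and did not share that order. It read 378, 207, 484 and 359 at its probe set (1423315_at), lowest on the Ring1B-KO-labelled array. Its difference there was −0.87, or 1.83-fold lower, the largest of the 10 genes in that pair. In the double KO pair it was −0.43.

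Perp, which encodes a membrane protein of cell junctions with a role in apoptosis, read 584, 574, 595 and 211 at 1416271_at. Among the first 3 arrays the differences were −0.025, 0.026 and −0.051. The double-KO-labelled array was 2.82-fold below its control, a difference of −1.49.

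Trp53inp1, whose product enhances p53 activity and takes part in autophagy, was highest on the Ring1B control array at both probe sets. The signals were 4228, 2982, 1965 and 1674 at 1416926_at and 670, 382, 416 and 405 at 1416927_at. Within the Ring1B pair the differences were −0.50 and −0.81. Within the double KO pair they were −0.23 and −0.037.

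Of the genes that restrain growth signalling, Phlda3, which encodes a repressor of the kinase Akt, read 801, 1044, 868 and 385 at 1449002_at. It was 2.26-fold lower on the double-KO-labelled array than on its control (−1.17) and differed by 0.38 in the Ring1B pair. With arrays scaled to a common median the double KO difference was −0.88, short of 2-fold.

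Sesn2, which encodes a stress-induced inhibitor of mTORC1, differed more between the pairs than within them. It read 559, 476, 1136 and 1207 at 1425139_at and 377, 402, 700 and 828 at 1451599_at. The differences within the double KO pair were 0.087 and 0.24, and those within the Ring1B pair were −0.23 and 0.092. The double KO control array was above the Ring1B control array by 1.02 and 0.89, and under it by −0.62 at the brighter probe set with the values as deposited, whose means differ between pairs.

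**Figure D2:**
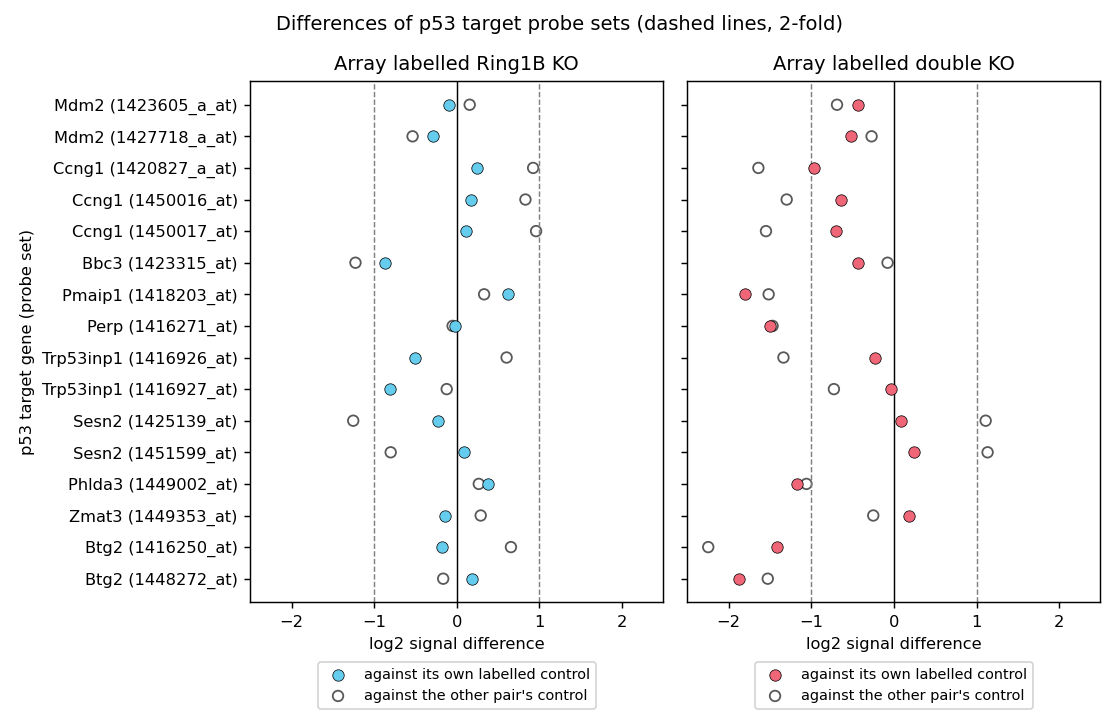
Log2 signal difference (horizontal axis) of the 16 p53 target probe sets above the floor on the Ring1B-KO-labelled (left) and double-KO-labelled (right) arrays, against the own control (filled) and the control of the other pair (open). In the right panel the probe sets of Pmaip1, Perp, Phlda3 and Btg2 are left of the 2-fold line (dashed) against either control, while Sesn2 moves from near 0 to 1.11 and 1.13.

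Probe sets of the same gene gave a check within an array, although they share the RNA and are no replicates. Of the 5 genes with several probe sets above the floor, 5 had one direction at all of them in the double KO pair, with gaps of up to 0.46. In the Ring1B pair 3 of 5 did, with gaps of up to 0.36. Between the control arrays 3 of 5 did, with gaps of up to 1.18, the largest in Btg2.

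The choice of control was examined because the pairs stand apart. Against the Ring1B control array, the double-KO-labelled array differed by −1.52 for Pmaip1, −1.47 for Perp, −1.06 for Phlda3 and −2.25 for Btg2. Ccng1 at −1.30 and Trp53inp1 at −1.34 then passed 2-fold too, and Sesn2 was higher by 1.11, so that 7 of the 10 genes were at least 2-fold apart, against 17.5% of all genes above the floor on both arrays. Pmaip1, Perp, Phlda3 and Btg2 were thus at least 2-fold lower on the double-KO-labelled array than on each of the other 3 arrays. This count was chosen after the values were seen, and 2.25% of 13139 genes met it. With a common median Phlda3 did not meet it, and 1.22% of all genes did. The Ring1B-KO-labelled array, set against the double KO control array, was at least 2-fold lower for Bbc3 (−1.23) and Sesn2 (−1.25), 2 of 10 genes against 19.0% of all genes above the floor on both arrays. These comparisons share arrays with those above and are no separate evidence.

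The control arrays themselves differed at least 2-fold for 2 of the 10 genes, Sesn2 (1.02) and Trp53inp1 (−1.11), against 19.9% of all genes above the floor on both. Btg2 and Ccng1 followed at −0.83 and −0.66. The remaining 6 genes differed by −0.43 (Zmat3) to 0.36 (Bbc3), and the median was 0.071, against 0.14 over those genes.

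**Figure D3:**
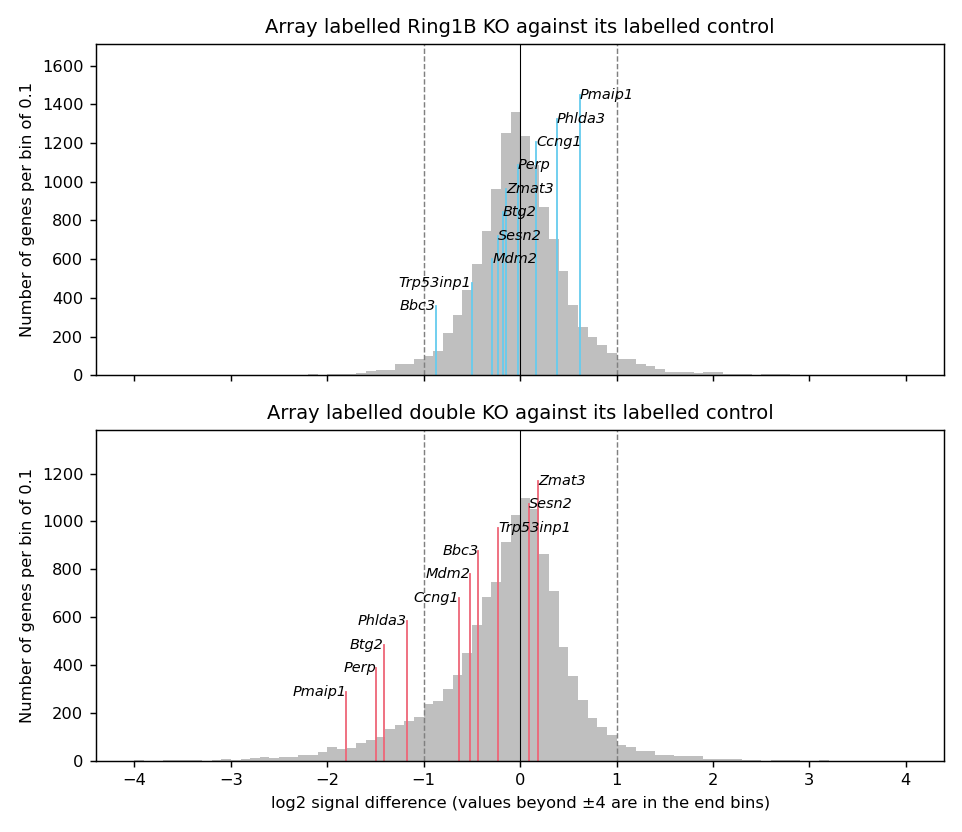
Number of genes (vertical axis, bins of 0.1) by log2 signal difference for all genes above the floor on 1 or both arrays, with the 10 p53 target genes marked at their values. In the upper panel (Ring1B) the 10 genes lie between −0.87 and 0.62. In the lower panel (double KO) they lie between −1.80 and 0.18, and 4 are left of the 2-fold line.

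Set side by side, 5 of the 10 genes were lower in both comparisons (Mdm2, Bbc3, Perp, Trp53inp1 and Btg2). Another 3 were higher on the Ring1B-KO-labelled array and lower on the double-KO-labelled one (Ccng1, Pmaip1 and Phlda3), and Sesn2 and Zmat3 went the other way by small amounts. Over the 10292 genes above the floor on all 4 arrays these shares were 21.8%, 30.0% and 31.3%. The signs are those of the brightest probe set. In the Ring1B pair they are not shared by the other probe set of Btg2 (0.18) or of Sesn2 (0.092). Under scaling to a common median, which moved the median of all genes in the double KO comparison from −0.023 to 0.25, Trp53inp1 turned to 0.060. The split of all genes at least 2-fold apart, those at the floor on 1 array included, then was 851 lower and 769 higher in place of 1242 and 371. Relative to the median of all genes above the floor on both arrays, the median of the 10 genes was −0.55 with the scaling used here and −0.54 with a common median.

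Markers of other cell types also differed in the double KO pair. Of 13 fibroblast markers above the floor, 13 were lower on the double-KO-labelled array than on its control, 10 of them at least 2-fold, and the summed signal of the 14 named was 5235 on the control and 2397 on the double-KO-labelled array. Of 10 markers of extraembryonic endoderm, 9 were lower, 5 at least 2-fold, and Lama1, a laminin gene, was higher by 1.34, with sums of 6100 and 2478 over 11 genes. Gata6, which defines that lineage, was under the floor on the double-KO-labelled array. ES cell markers were higher for 10 of 10, with sums of 46023 and 63122. In the Ring1B pair the endoderm sum was 6057 on the control and 19374 on the Ring1B-KO-labelled array, and the fibroblast sum was 11844 and 17012. The part of these cells in the values of the p53 targets was not tested.

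The rest of the pathway was described from lists of regulators and further targets. Trp53, the gene of p53 itself, was not analysed here. The lists count genes above the floor on 1 or both arrays of a pair. Among all such genes, 441 of 12366 were at least 2-fold higher and 322 lower in the Ring1B pair, and 371 of 12384 were higher and 1242 lower in the double KO pair. Counts of 1 to 3 in lists of this length are given as a description, and nothing is read from them about a list. Of 22 regulators above the floor, 1 was at least 2-fold higher and 0 lower on the Ring1B-KO-labelled array, and 0 higher and 3 lower on the double-KO-labelled one, with medians of −0.061 and 0.026. Twist1, a mesodermal transcription factor that can also inhibit p53, differed by 1.61 and −1.48 in the Ring1B and double KO pairs. Its signals were 37.3, 114, 122 and 43.6, near the floor on 2 arrays. Against the control of the other pair the differences were −0.095 for the Ring1B-KO-labelled array and 0.22 for the double-KO-labelled one. Bcl6, a transcriptional repressor, differed by −1.25 in the double KO pair, and Ppp1r13b, a p53-binding protein named after its values were seen, by −1.18. Against the Ring1B control array these were −0.60 and −0.15. Mdm4, the partner of Mdm2 in restraining p53, differed by −0.51 and −0.29. Cdkn2a, which encodes the Mdm2 inhibitor Arf, was 0.99 higher on the Ring1B-KO-labelled array at a signal near the floor (37.8 and 75.3). Hipk2 and Trp53bp1, which act on p53 after DNA damage, differed by −0.83 and −0.70 there. In the double KO pair Chek1, a checkpoint kinase gene, was higher by 0.52 and Trp73 by at least 0.53. The Trp73 signals were 31.3, 44.0, 16.2 and 52.8, under the floor on both control arrays and near it on the others.

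Of 10 further targets grouped here under the cell cycle, 0 were at least 2-fold apart in the Ring1B pair and 3 were at least 2-fold lower in the double KO pair. Cdkn1a, which encodes the p21 inhibitor, read 913, 957, 1549 and 701. Its double KO difference was −1.14. Against the Ring1B control array, in a comparison across pairs, the double-KO-labelled array differed by −0.38. Plk2, a polo-like kinase gene, read 725, 903, 644 and 204, a difference of −1.66, and was the one gene of this list at least 2-fold under all 3 other arrays. Sfn, which encodes a 14-3-3 protein, differed by −1.65, with a signal of 1214 on the double KO control and 387 on the double-KO-labelled array. Against the Ring1B control array it was −0.32. Gadd45a and Btg1 were lower in the Ring1B pair (−0.97 and −0.70) and higher in the double KO pair (0.47 and 0.59). In the Ring1B pair Plk2 and Gtse1 were the highest, at 0.32 and 0.10. The list's medians were −0.27 and −0.043.

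Of 10 further apoptosis targets above the floor, 0 were at least 2-fold apart in either pair, with medians of −0.065 and 0.056. Eda2r, a receptor gene, differed by −0.90 and Siva1 by −0.34 in the Ring1B pair, where Tnfrsf23 was higher by 0.73 and Ei24 by 0.15. In the double KO pair, genes above the floor on both arrays ranged from −0.28 for Apaf1, the scaffold of the apoptosome, to 0.44 for the receptor gene Tnfrsf10b. Siva1 was at 0.17. Tnfrsf23 was under the floor on the double-KO-labelled array, and so was Fas, named for that reason. They were lower by at least 0.23 and 0.16. Their control signals of 43.0 and 40.9 were too near the floor of 36.6 for a 2-fold drop to be counted.

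In the wider Bcl2 family, which holds the proteins that Noxa and Puma bind, 1 of 12 genes was at least 2-fold lower and 0 higher in the Ring1B pair. In the double KO pair 1 of 13 was lower and 0 higher. The medians were −0.11 and −0.091. Bnip3, a mitochondrial gene also induced by low oxygen, differed by −1.50 in the Ring1B pair and 0.69 in the double KO pair. Bik, a BH3-only gene, was at least 4.71-fold lower on the double-KO-labelled array (172 to under the floor). It read 42.5 and 44.9 on the Ring1B arrays, and against that control array it was at least 1.16-fold lower. Bad was higher by 0.74 in the Ring1B pair and lower in the double KO pair (−0.91), and Bmf went from −0.80 to 0.43. Bak1, a pore-forming effector, differed by 0.31 in the Ring1B pair.

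Of 17 repair and metabolism targets above the floor, 1 was at least 2-fold higher and 0 lower in the Ring1B pair, and 1 higher and 2 lower in the double KO pair, with medians of −0.052 and −0.11. Dram1, which encodes a lysosomal membrane protein of autophagy, differed at least 2-fold in both pairs. It read 154 and 652 on the Ring1B pair, 4.24-fold higher, and 177 and 38.3 on the double KO pair, 4.62-fold lower. Dcxr, a sugar reductase gene, differed by −1.34 in the double KO pair. Both were at least 2-fold lower on the double-KO-labelled array than on the other 3. Fancc, a Fanconi anaemia gene, was 1.11 higher there and Sod2 0.59 higher. In the Ring1B pair the DNA repair gene Ddb2 differed by −0.74, the nucleotide synthesis gene Rrm2b by −0.51 and Ak1 by 0.44.

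**Figure D4:**
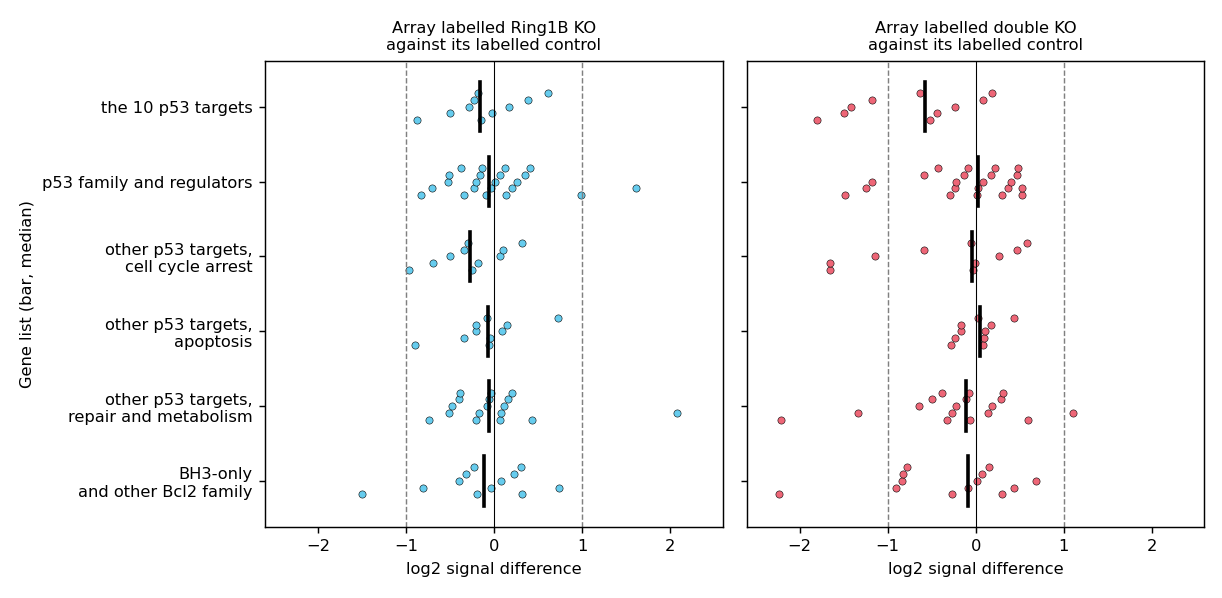
Log2 signal difference (horizontal axis) of each gene above the floor in the 10 p53 target genes and the 5 pathway lists, for the Ring1B-KO-labelled (left) and double-KO-labelled (right) arrays against their own controls, with bars at the medians and dashed lines at 2-fold. In the right panel the median of the 10 genes is −0.58 and those of the other lists lie between −0.11 and 0.056.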

How the data were processed

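Total RNA of 4 mouse ES cell samples was hybridised to Affymetrix arrays of 45101 probe sets. The deposited value is a signal intensity that the authors obtained from MAS5 (the submitters' processing notes name it), with version and settings not given in the sources used here. The 2%-trimmed means of the deposited values were 500.0 for both Ring1B arrays, 160 for the double KO control and 147 for the double KO. No detection calls were used, and saturation was not assessed.

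Each array was multiplied to a common trimmed mean of 277 (factors 0.554, 0.554, 1.73 and 1.89), floored at 36.6, the 40th percentile of scaled signals, and log2-transformed. Scaling assumes a like summed signal per array, and the floor shrinks differences of dim genes. Gene names came from the platform annotation, in which 34958 have 1 gene symbol, 932 several and 9211 none here. Controls of the manufacturer were left out. Symbols were checked by Entrez identifier against the RefSeq table (34754 matched, 0 changed). The probe set with the highest mean log2 signal stood for a gene.

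The 10 genes, the lists and the size of 2-fold were chosen with earlier results of these data known. Named genes were all 10 with each probe set, Ring1, Rnf2, Cdkn1a and Mdm4, and the 2 members of each pathway list with the largest difference in each direction and comparison. Of the listed genes, some, among them Trp53, Bax, Fdxr, Gdf15, Bcl2a1a, Bnip3l and Fbn1, were not analysed here. Differences came from 1 array per group, so no test was run. The steps were run in Python 3.11.15 with pandas 2.3.3 and NumPy 2.4.6, and were tested on simulated data. Alternatives were other scalings, floors, probe set rules and the control of the other pair.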

Additional observations from a re-analysis of the deposited data

Results flagged for a closer look

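The Ring1B and double KO differences of some named genes had opposite signs and lay at least 2-fold apart. Each rests on 1 array per group and this was not tested. Among the 10 p53 targets these were Pmaip1, whose double KO difference minus its Ring1B difference was −2.42, and Phlda3, at −1.56. Among regulators and cell cycle targets the same quantity was −3.09 for Twist1, −1.98 for Plk2, −1.21 for Cdkn1a, 1.44 for Gadd45a and 1.28 for Btg1. Among repair and metabolism targets it was −4.29 for Dram1, 1.28 for Fancc and 1.08 for Sod2. In the Bcl2 family it was −2.31 for Bik, whose double KO value is under the floor, −1.65 for Bad, 2.19 for Bnip3 and 1.23 for Bmf. Ppp1r13b, a regulator outside the naming rule, also qualified, with 0.36 in the Ring1B pair and −1.18 in the double KO pair. So did Bcl2l1, a Bcl2 family gene outside that rule, with 0.31 and −0.82. Of the 10292 genes above the floor on all 4 arrays, 30.0% were higher in the Ring1B KO and lower in the double KO, and 31.3% the reverse. How many of those were also at least 2-fold apart was not counted.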

How the results depend on the processing

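In the double KO comparison the median of the 10 genes was below 0 in all alternatives run, from −1.18 to −0.29. With the own control, 3 or 4 of these genes were at least 2-fold apart. With each probe set counted it was 5 of 16 probe sets, with Btg2 entered by both of its own. Against the control of the other pair it was 7 genes (median −1.18). Over all genes, or all probe sets where these were counted, 8.18% to 19.3% were that far apart. The 3 came from scaling to a common median, which left out Phlda3. In the Ring1B comparison the count was 0 in all alternatives but the other control, where it was 2 with a median of 0.28 in place of −0.16. The comparison of the control arrays was the least stable. Its count of 2 was 1 under quantile normalization, 0 with the mean over probe sets and 9 as deposited. Over all genes above the floor on 1 or both arrays, 21.1%, 14.4% and 65.9% were that far apart in the same settings. The median of the 10 genes between the control arrays, 0.071, was −0.11 with each probe set counted and −1.57 as deposited. As deposited the median of all genes above the floor on both was −1.44, and Sesn2 turned from 1.02 to −0.62. As deposited the pairs have different means. For the other turns the cause was not tested. No paired analysis was possible because each group holds 1 array. Leaving out 1 array removes each comparison that uses it, so this was not run. Dim genes near the floor are limited most, and of the 10 genes the Mdm2 probe set 1457929_at was there.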
